A study of Danio rerio with 10 samples.

Results

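The comparison of the high mixture dose with solvent control used 7 of the 10 RNA-seq samples of the series, 4 labelled POP125× and 3 labelled control, taken by their labels alone. Each sample was a pool of whole zebrafish larvae of the AB strain at 5 dpf (days post-fertilization). Control larvae (replicates 1, 2 and 4) were kept in 0.1% DMSO, the solvent, and POP125× larvae (replicates 1, 2, 3 and 4) were kept in the same 0.1% DMSO with a mixture of persistent organic pollutants (POPs) at 125 times its level in human blood. The remaining 3 samples, at 75 times that level, entered the fit only to share one estimate of the spread. A pool mixes many larvae and all their organs, and the labels do not say whether pools came from separate clutches, so the p-values measure the spread between these samples, which may be technical in part.

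The test covered 21563 of 32520 listed genes, those that reached 10 normalized counts (reads scaled by a size factor for each sample) in 3 or more of the 10 samples. To describe the change by pathway and tissue, 66 gene lists were drawn up with 2995 tested genes between them, 124 of the listed genes being in more than one list. A list is described by how many members passed the test, how many had all 4 POP125× samples above or below all 3 control samples, and its median log2 fold change. A value in parentheses directly after a gene symbol is its log2 fold change, POP125× minus control. Dividing cells transcribe the genes of DNA replication and mitosis in waves, and these transcripts are scarce in cells that have left the cycle. Larval neurons and endocrine cells store peptides in granules, muscle and liver adjust fuel use through mitochondrial and glycolytic enzymes, and stress hormones and injury induce early response factors within minutes. In a bulk sample, fewer cells of a type and less RNA per cell cannot be told apart.

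The libraries held 13659239 to 20267255 reads on genes, with nearly the same number of genes detected (24499 to 24939). Of the 37 symbols checked as markers of the organs of a whole larva, 36 were found, and all of these had counts in every one of the 7 samples. No replicate pair matched within sampling noise (chi-square over degrees of freedom from 5.25 to 66.6). By clustering, POP125× replicates 3 and 4 fell with control replicate 1, and replicates 1 and 2 of POP125× fell into a set that held no control. Circadian clock genes marked that split. Of the 48 clock genes tested, 38 (79.2%) had POP125× replicates 1 and 2 both above or both below the other 5 libraries, against 30.3% of all genes tested. The light-responsive repressor *per1b*, chosen after its values were seen, had 3153, 2892 and 3315 normalized counts in control pools 1, 2 and 4, and 698, 721, 3762 and 2579.8 in POP125× pools 1 to 4. POP125× replicates 1 and 2 thus stood at levels of their own in this gene, whereas replicates 3 and 4 lay among or near the controls. Some results are therefore also given without POP125× replicates 1 and 2. Many lists are also given in a set-adjusted fit, where a term for the set each library clustered in is added. In that fit, the contrast rests on 1 control and 2 POP125× samples of one set and on the POP75× samples that link the others. Its sets were found by clustering the same values that it tests, so its p-values may be too small. At an adjusted p under 0.05 the set-adjusted fit called 1728 of the 21563 genes tested higher and 979 lower. These numbers are the background for all counts from that fit below. The part of these differences between libraries in the results below was not tested.

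Across the transcriptome, 90% of the log2 fold changes lay between −0.71 and 1.01, with a median of −0.0082. A rise of more than 1 on the log2 scale was seen for 1090 genes and a fall of that size for 344, and a change of more than 2 for 161 and 19 genes. The test called 291 genes higher (1.35% of genes tested) and 75 lower (0.348%), the differentially expressed genes (DEGs). The higher DEGs had a median log2 fold change of 1.39 and the lower ones −0.89. In each of the 291 higher DEGs, the POP125× samples all lay above the controls, and in each of the 75 lower ones they all lay below. That separation was common, with 12.4% of all genes tested entirely above and 11.6% entirely below. These shares, and those of genes called higher and lower, are the background for the counts of every list below.

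The higher DEGs together took 0.822%, 0.701% and 0.691% of all normalized counts in control pools 1, 2 and 4, and 1.74%, 1.91%, 1.93% and 1.99% in POP125× pools 1 to 4. The lower DEGs took 0.535%, 0.458% and 0.438% of counts in the control and 0.283%, 0.235%, 0.262% and 0.271% in the POP125× samples. Their median deviation from the control mean was of like size in all 4 POP125× libraries, 1.22, 1.41, 1.43 and 1.44 on the log2 scale for the higher DEGs and −0.79, −1.01, −0.91 and −0.83 for the lower ones, a description of genes chosen on these samples. With the genes ranked by mean level in 3 equal parts, 67 were higher and 4 lower in the lowest (up to 90.7 normalized counts), against 109 and 37 in the middle and 115 and 34 in the highest. All 366 DEGs kept their sign in the set-adjusted fit, which is no independent support. The DEGs were chosen on these same samples. The only set with both groups compares POP125× replicates 3 and 4 with control replicate 1. The DEGs also kept their sign without POP125× replicates 1 and 2 and without replicates 3 and 4. With these libraries left out, that was fixed in advance, since their groups did not overlap. Past the threshold without POP125× replicates 1 and 2 were 59 of the higher and 1 of the lower DEGs.

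Many calls were lost with a single library left out. Those fits also hold fewer samples, and the part of that was not tested. With one library left out in turn, 35 higher and 0 lower DEGs stayed past the threshold in all 7 fits. By limma, 40 genes were higher and 0 lower without control replicate 2, and 38 and 0 without control replicate 4. Leaving out POP125× replicate 2, 3 or 4 gave 56, 40 and 43 higher and 0, 0 and 1 lower genes, against 190 and 38 without POP125× replicate 1 and 373 and 100 without control replicate 1. By edgeR on the recovered reads, 220 genes were higher and 65 lower, by DESeq2 on all samples 1001 (4.64%) and 608 (2.82%), and at an unadjusted limma p under 0.05 there were 2470 higher (11.5%) and 2048 lower (9.5%) genes, 4518 in all (21.0%). Among the 98 DEGs named by rule, the calls that held in each of the 7 fits were those of *ucp3*, *pmaip1*, *cbx7a*, *retreg1*, *pdk2b*, *prelid3b*, *fbxo32*, one gene without a descriptive symbol, *cyp24a1*, *pdyn*, *hspb9*, *igfbp1a*, *igfbp1b*, *psme4a*, *cpt1b*, *lipca*, *pfkmb*, *slc16a3*, *arg2*, *galn*, *pcsk1* and *prg4b*. The other 76 were lost in one or more of them, 23 of the 98 without control replicate 1, 75 without control replicate 2 or 4, and 29, 69, 74 and 72 without POP125× replicate 1, 2, 3 and 4.

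**Figure D1:**
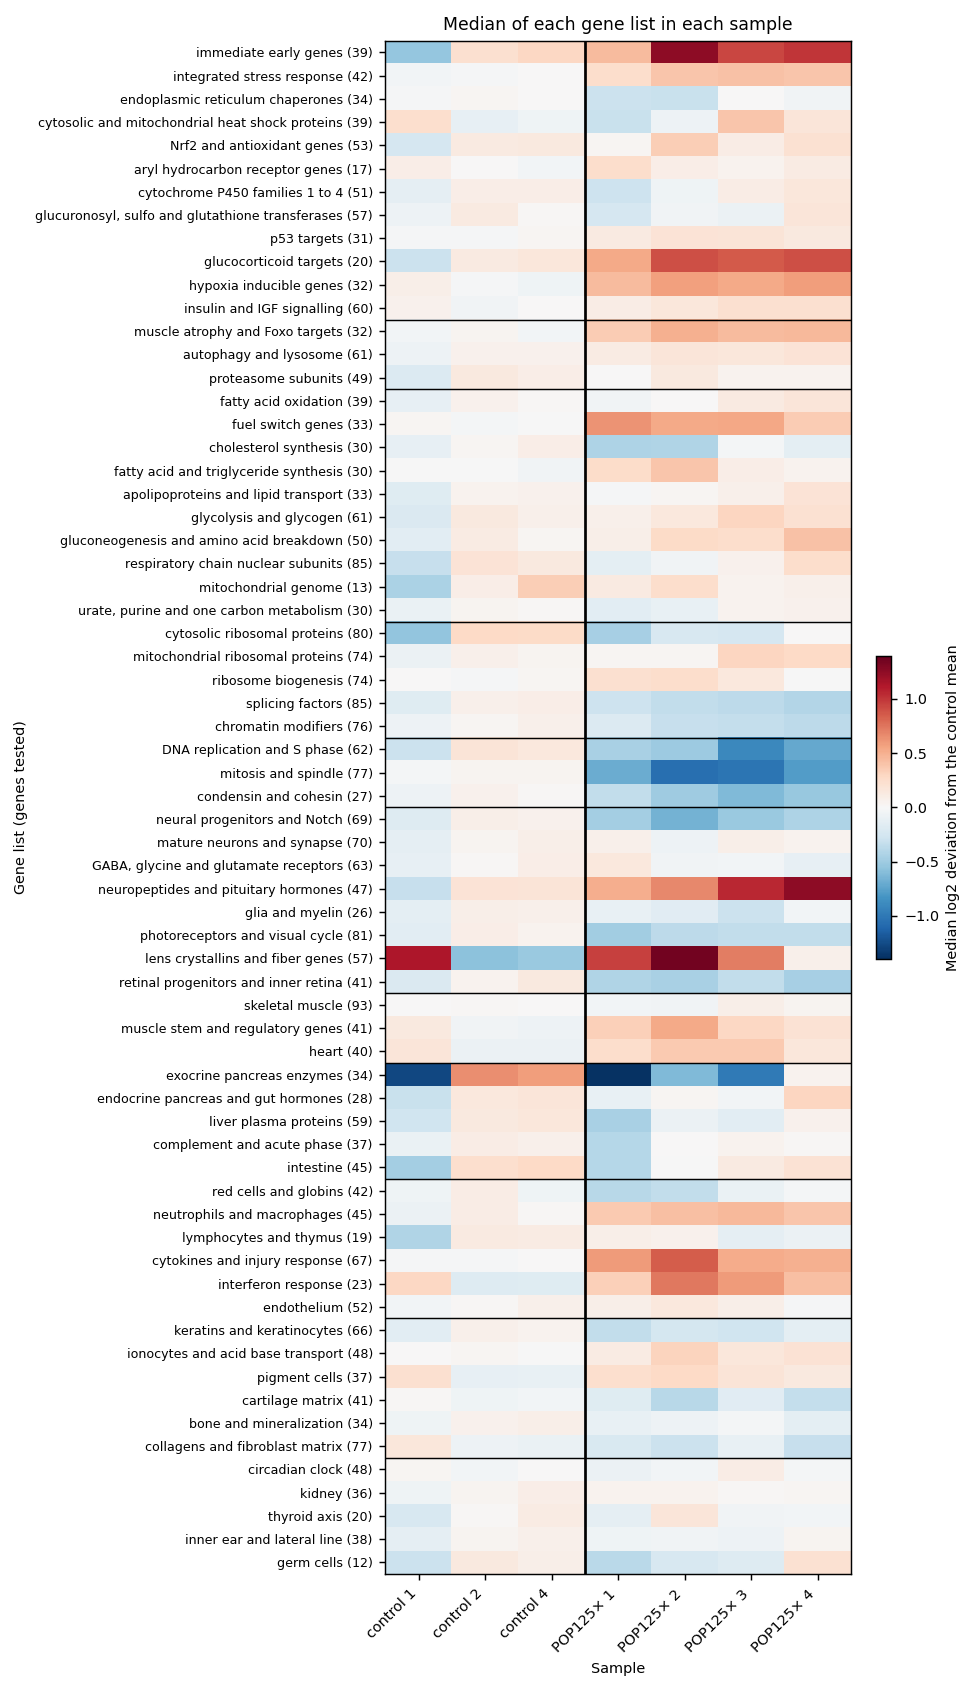
Median log2 deviation from the control mean of each of 66 gene lists (rows, with the number of genes tested in parentheses) in each of the 7 samples (columns), blue for lower and red for higher. The row of mitosis and spindle genes is blue in all 4 POP125× samples (−0.70 to −1.05) and that of neuropeptides red (0.51 to 1.25), while the lens and exocrine pancreas rows split control replicate 1 from the other controls.

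Genes of cell division formed the group with the most DEGs that fell. Of 77 mitosis and spindle genes tested, 20 fell (the background of genes called lower is 0.348%), none rose, all 77 had a negative log2 fold change, and 65 had every POP125× sample below every control (background 11.6%). Their median log2 fold change was −0.90, beside −0.0082 over all genes tested. Taken by sample, their median deviation from the control mean was −0.026, 0.034 and 0.036 in the control and −0.70, −1.05, −1.03 and −0.78 in the POP125× samples, so the groups did not overlap. The summed level of the list made up 0.170%, 0.143% and 0.138% of all normalized counts in control pools 1, 2 and 4, and 0.0958%, 0.0737%, 0.0773% and 0.0876% in POP125× pools 1 to 4.

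Cyclin A2, *ccna2* (ENSDARG00000011094), which drives entry into mitosis with its kinase, had 436, 501 and 484 normalized counts in control pools 1, 2 and 4, and 247, 247, 202 and 208 in POP125× pools 1 to 4. Its log2 fold change was −1.07 ± 0.18 (SE, limma adjusted p = 0.0183). The topoisomerase that untangles sister chromatids, *top2a* (ENSDARG00000024488), had 1905, 1732 and 1602 normalized counts in the control and 1049, 800.3, 795 and 1012 in the POP125× samples, a log2 fold change of −0.94 ± 0.16 (SE, limma adjusted p = 0.0183). Both genes were lower in each exposed pool than in any control pool. The spindle motor *kif11* (ENSDARG00000010948) had 709, 702 and 636 normalized counts in the control and 418, 285, 313 and 384 in the POP125× samples and changed by −0.98 ± 0.16 (SE, limma adjusted p = 0.0184) on the log2 scale. A kinetochore protein that couples chromosomes to microtubules, *ska1* (ENSDARG00000039354), was the least abundant of these, with 47.7 to 70.9 normalized counts in the control and 16.8 to 23.1 in the POP125× samples, and a log2 fold change of −1.53 ± 0.26 (SE, limma adjusted p = 0.0196). The remaining mitosis DEGs, which include the polo kinase *plk1*, the transcription factor *foxm1* that switches on the mitotic genes, the kinesins *kif15*, *kif20a*, *kif23*, *kif2c* and *kifc1*, the kinetochore genes *knl1*, *cenpe* and *cenpi* and the cytokinesis gene *anln*, had log2 fold changes between −0.67 and −1.24. By DESeq2, 52 of the 77 were lower (background 2.82%) and by edgeR 18. The number past the limma threshold was 18, 0 and 0 without control replicate 1, 2 and 4 and 13, 0, 0 and 0 without POP125× replicate 1, 2, 3 and 4, with 58 to 65 at an unadjusted p under 0.05. Without POP125× replicates 1 and 2 it was 1, at a median of −0.87, and in the set-adjusted fit 31, at a median of −0.62.

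Fewer genes of DNA replication passed the test. Of 62 tested, 4 fell, namely the replicative helicase subunits *mcm6* and *mcm5*, the clamp loader gene *rfc1* and *tyms*, which makes thymidylate. All but 1 of the 62 had a negative log2 fold change, the median was −0.62, and 29 had every POP125× sample below every control. The helicase gene *mcm6* (ENSDARG00000057683) had 962, 1079 and 1051 normalized counts in the control and 642, 671, 552 and 532 in the POP125× samples, with a log2 fold change of −0.79 ± 0.14 (SE, limma adjusted p = 0.0219). The list median stood at −0.30, 0.18 and 0.15 in the control and −0.45, −0.51, −0.90 and −0.71 in the POP125× samples. Control replicate 1 was thus lower than the other controls and nearest to the POP125× samples. By DESeq2, 19 members were lower. Without POP125× replicates 1 and 2 together, limma called 0. Members past the limma threshold numbered 8, 0 and 0 without control replicate 1, 2 and 4 and 1, 0, 0 and 0 without POP125× replicate 1, 2, 3 and 4, with 21 to 47 at an unadjusted p under 0.05, and 21 passed in the set-adjusted fit. Of 27 genes of condensin and cohesin, the ring complexes that fold chromosomes and hold sister chromatids, 4 fell (14.8%, background 0.348%). These were the condensin subunits *ncapd2* (−1.06), *ncapd3* (−0.89) and *ncapg* (−0.74) and the cohesin protector *cdca5* (ENSDARG00000044437), with 133, 148 and 138 normalized counts in the control and 55.7, 62.0, 55.2 and 63.7 in the POP125× samples, with a log2 fold change of −1.22 ± 0.21 (SE, limma adjusted p = 0.0185). The condensin and cohesin list had a median of −0.55 (−0.45 in the set-adjusted fit), with 14 members entirely below the controls and 1 above. By DESeq2, 10 were lower and by edgeR 4. Without control replicate 1, 2 and 4, the members past the limma threshold numbered 4, 0 and 0. Without POP125× replicate 1, 2, 3 and 4 they numbered 5, 0, 0 and 0. At an unadjusted p under 0.05, the 7 fits had 11 to 16. Without POP125× replicates 1 and 2 together, 0 passed the limma threshold. The lists of cell division held 166 tested genes between them and 28 of the 75 lower DEGs.

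Among the lists of the nervous system, a few neural progenitor and Notch genes fell and some peptide genes rose. The list of mature neurons and synapses held few DEGs. Pools of whole larvae do not show in which tissue these genes changed. Of 69 genes of neural progenitors and the Notch pathway, through which newly born neurons hold back their neighbors, 3 fell and 31 had every POP125× sample below every control. Notch ligands were among them. The ligand gene *dla* (ENSDARG00000010791) had 519, 566 and 570.1 normalized counts in the control and 292, 304, 272 and 356 in the POP125× samples, with a log2 fold change of −0.85 ± 0.16 (SE, limma adjusted p = 0.0242), and its paralog *dlb* (ENSDARG00000004232) had 359, 348 and 320.0 normalized counts in the control and 179, 149.6, 181 and 220.0 in the POP125× samples, with a log2 fold change of −0.92 ± 0.18 (SE, limma adjusted p = 0.0323). The other was *cdca7b*, which binds the nucleosome remodeler encoded by *hells*, at −0.89. The list median was −0.53, and −0.28 in the set-adjusted fit. DESeq2 called 17 members lower, and limma without POP125× replicates 1 and 2 called 0. By limma, the members past the threshold numbered 3, 0 and 0 without control replicate 1, 2 and 4 and 1, 0, 0 and 0 without POP125× replicate 1, 2, 3 and 4, with 18 to 40 at an unadjusted p under 0.05.

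Peptide genes rose most often of all lists in the nervous system. Of 47 genes of neuropeptides and pituitary hormones tested, 12 rose (the background of genes called higher is 1.35%), none fell, and 29 had every POP125× sample above every control (background 12.4%). Their median log2 fold change was 0.90, and it was 1.14 without POP125× replicates 1 and 2, 0.64 without replicates 3 and 4 and 1.28 in the set-adjusted fit. The summed level of the list made up 0.0618%, 0.0614% and 0.0619% of all normalized counts in control pools 1, 2 and 4, and 0.119%, 0.120%, 0.170% and 0.171% in POP125× pools 1 to 4. The controls were close to each other and all below the exposed pools, of which replicates 3 and 4 were the higher.

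The dynorphin precursor *pdyn* (ENSDARG00000087798), an opioid peptide gene, had 46.8, 55.7 and 48.2 normalized counts in control pools 1, 2 and 4, and 256, 231, 341 and 272 in POP125× pools 1 to 4. Its log2 fold change was 2.42 ± 0.27 (SE, limma adjusted p = 0.00341). The galanin gene *galn* (ENSDARG00000091377), which encodes a hypothalamic peptide, had 35.3, 52.8 and 52.2 normalized counts in the control and 178, 141, 204 and 237 in the POP125× samples, a log2 fold change of 2.00 ± 0.23 (SE, limma adjusted p = 0.00502). For both genes the lowest exposed pool lay well above the highest control. The convertase *pcsk1* (ENSDARG00000002600), which cuts peptide precursors inside secretory granules, had 516, 477 and 559 normalized counts in the control and 1716, 1714, 2398 and 2369 in the POP125× samples and a log2 fold change of 1.97 ± 0.26 (SE, limma adjusted p = 0.00696). The granule protein secretogranin 2, *scg2b* (ENSDARG00000038574), had 2005, 2967 and 3098 normalized counts in the control and 6803, 6572, 9042 and 9763 in the POP125× samples and a log2 fold change of 1.59 ± 0.21 (SE, limma adjusted p = 0.00721). These genes thus include the cargo of peptide granules and an enzyme that processes it.

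The other members that rose were the granule gene *vgf* (1.95), the nociceptin precursor *pnoca* (1.29), the proopiomelanocortin paralog *pomcb* (2.77), the tachykinin precursor *tac1* (1.13), *npy* (1.69), the Pacap precursor *adcyap1b* (1.04), the enkephalin precursor *penka* (0.94) and the prolactin paralog *prl2* (2.21), all as log2 fold changes. The paralogs in this set share sequence, and how reads common to them were counted could not be checked. DESeq2 called 20 members higher and edgeR 11. The number past the limma threshold was 8, 4 and 4 without control replicate 1, 2 and 4 and 10, 4, 4 and 5 without POP125× replicate 1, 2, 3 and 4, with 23 to 31 at an unadjusted p under 0.05. It was 6 without POP125× replicates 1 and 2 and 30 in the set-adjusted fit. Peptide genes outside the list were taken up after the DEGs were seen and support nothing by themselves. They were the nociceptin paralog *pnocb* (2.22), the granule gene *ptprnb* (1.59), *npb* (2.02), *uts2d* (3.22), *cart3* (2.03), *calca* (1.56), *nts* (2.23), *prok1* (2.28), *prlh2* (1.74) and the neurotrophin *bdnf* (1.64), all higher DEGs. Of these, *uts2d* was near the floor, with 0 to 1.97 normalized counts in the control and 14.7 to 20.6 in the POP125× samples.

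Genes of mature neurons and synapses did not shift in one direction as a list, with a median log2 fold change of 0.051 over 70 tested. Entirely above the controls were 10 (14.3%, background 12.4%) and entirely below 12 (17.1%, background 11.6%). At an unadjusted p under 0.05, 10 were higher and 10 lower, and DESeq2 called 5 and 4. By limma, 1 rose (1.43%, against 1.35% of all genes tested). The one was *gad2* (ENSDARG00000015537), an enzyme that makes the inhibitory transmitter GABA, with 2085, 1861 and 1731 normalized counts in the control and 4499, 3533, 4047 and 4336 in the POP125× samples, with a log2 fold change of 1.11 ± 0.20 (SE, limma adjusted p = 0.0237). Among 63 receptor genes for GABA, glycine and glutamate, limma called 0, with 7 higher and 2 lower at an unadjusted p under 0.05, 2 and 2 by DESeq2 and 0 by edgeR. Their median was −0.042. Glia and myelin genes (26 tested) also had 0 called by limma, 4 higher and 4 lower at an unadjusted p under 0.05, 2 and 2 by DESeq2 and 0 by edgeR. Within them the oligodendrocyte lineage factor *olig2* (ENSDARG00000040946) had a log2 fold change of −0.97 and an adjusted p of 0.0559 by limma, with all exposed values below the control values.

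In the eye, genes of photoreceptors and the visual cycle had a median log2 fold change of −0.41 over 81 genes. Limma called 0 of them, with 1 higher and 24 lower at an unadjusted p under 0.05, 1 and 11 by DESeq2 and 0 by edgeR. They made up 0.858%, 1.08% and 1.08% of all normalized counts in control pools 1, 2 and 4, and 0.654%, 0.688%, 0.725% and 0.754% in POP125× pools 1 to 4, so each exposed pool was below each control, control replicate 1 being the lowest of these. The rod opsin gene *rho* (ENSDARG00000002193) itself had 15642, 40347 and 45721 normalized counts in the control and 16414, 23541, 12707 and 16211 in the POP125× samples, and the groups overlapped. Cone transducin, *gnat2* (ENSDARG00000042529), had 6172, 8673 and 8933 normalized counts in the control and 3202, 2966, 5469 and 5021 in the POP125× samples, an adjusted p of 0.157 by limma, with no overlap. For 41 genes of retinal progenitors and inner retina the median was −0.36, 38 were negative, and 17 had every exposed pool below every control. In the set-adjusted fit the medians were −0.14 for photoreceptors and the visual cycle and −0.22 for retinal progenitors and inner retina. The 1 member that passed, *cabp5a* (0.92), a calcium-binding protein of retinal interneurons, rose. It was 2.44% of the retinal progenitor and inner retina list, against 1.35% of all genes tested. Its call was lost with any single library left out.

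**Figure D2:**
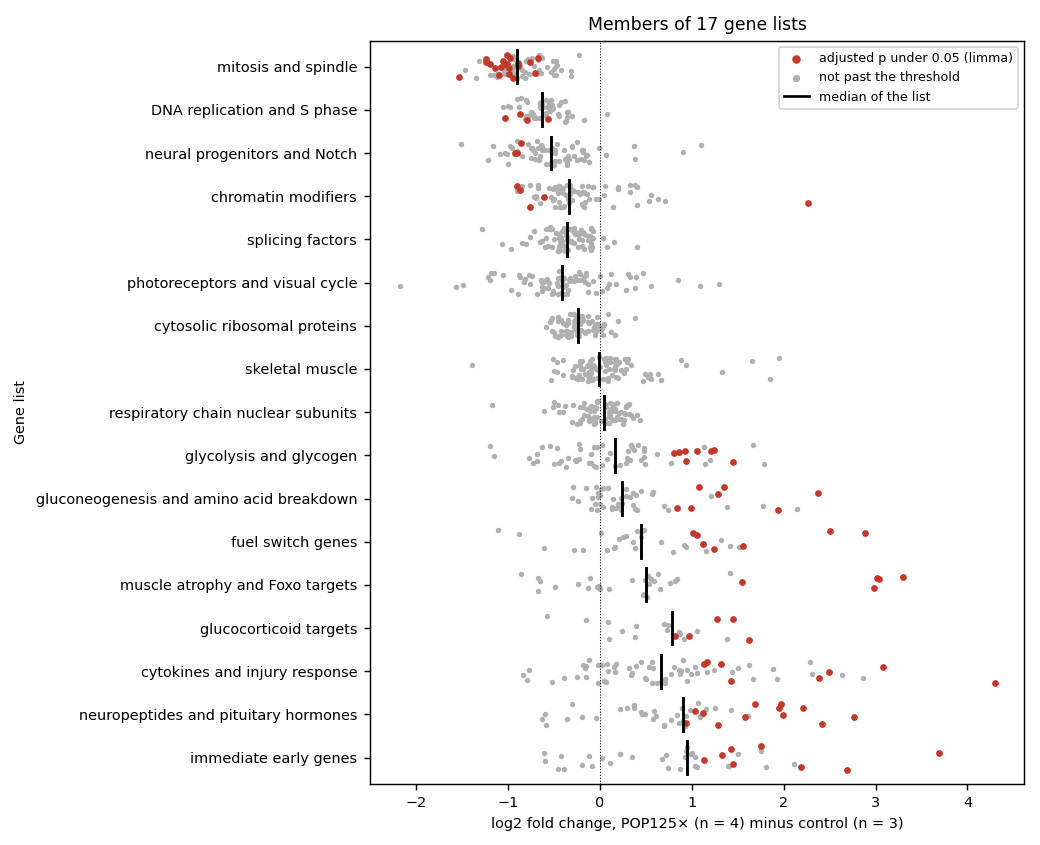
Log2 fold change (POP125× minus control) of every tested member of 17 gene lists, one point per gene, red where the adjusted p of limma was under 0.05, with a black bar at the list median. All 77 mitosis genes lie left of 0 with 20 in red, 12 red points lie right of 0 among the neuropeptides, and the skeletal muscle and respiratory chain lists center near 0 with no red point.

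Transcripts of the gene expression machinery moved less. For 85 splicing factors (proteins of the spliceosome and RNA-binding regulators), the median log2 fold change was −0.35, 81 had a negative value, and 29 had every POP125× sample below every control. Limma called 0, with 23 lower at an unadjusted p under 0.05, DESeq2 9 lower and edgeR 0. An example is *hnrnpabb* (ENSDARG00000099865), an RNA-binding protein, with 4185, 4774 and 4349 normalized counts in the control and 3355, 2884, 3047 and 3084 in the POP125× samples and an adjusted p of 0.0967. In the set-adjusted fit the list median was −0.12. Of 76 chromatin modifiers, 4 fell (5.26%, background 0.348%), 1 rose (1.32%, background 1.35%) and the median was −0.34, or −0.22 in the set-adjusted fit. Without POP125× replicates 1 and 2, limma called 0 of them lower and 1 higher.

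The 1 that rose was among the genes with the lowest p of the whole comparison. *cbx7a* (ENSDARG00000038025), a Polycomb protein that binds methylated histone H3, had 283, 319.8 and 310.2 normalized counts in control pools 1, 2 and 4, and 1255, 1517, 1428 and 1715 in POP125× pools 1 to 4. The log2 fold change was 2.27 ± 0.21 (SE, limma adjusted p = 0.00135). The 4 that fell were the heterochromatin proteins *cbx1a* (−0.87) and *cbx3a* (−0.61), the histone methyltransferase *ehmt1a* (−0.76) and the remodeler *hells* (ENSDARG00000057738), with 678, 658 and 654 normalized counts in the control and 296, 358, 406 and 370.2 in the POP125× samples, with a log2 fold change of −0.90 ± 0.15 (SE, limma adjusted p = 0.0163). Members past the threshold in the lower direction numbered 3, 0 and 0 without control replicate 1, 2 and 4 and 2, 0, 0 and 0 without POP125× replicate 1, 2, 3 and 4, with 16 to 37 at an unadjusted p under 0.05. Genes of the same family (*cbx7a* against *cbx1a* and *cbx3a*) were therefore called in opposite directions.

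Ribosome genes differed between libraries of the same group. Limma called 0 of 80 cytosolic ribosomal protein genes, with 0 at an unadjusted p under 0.05 and 0 by DESeq2 or edgeR. Their summed level was 3.09%, 4.74% and 4.59% of all normalized counts in control pools 1, 2 and 4, and 3.08%, 3.50%, 3.54% and 4.09% in POP125× pools 1 to 4. Control replicate 1 and POP125× replicate 1 were the lowest, and the list median of −0.23 became 0.54 in the set-adjusted fit. Among 74 mitochondrial ribosomal proteins the median was 0.17 (0.47 in the set-adjusted fit), and 17 members had every exposed pool above every control, none below. Of these 74, limma and edgeR called 0, 7 were higher at an unadjusted p under 0.05 and DESeq2 called 2. The 74 ribosome biogenesis factors had a median of 0.14 (0.030 in the set-adjusted fit), 0 called by each of the tools and 5 higher at an unadjusted p under 0.05.

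Fuel metabolism held several of the genes with the lowest p-values. The list of fuel switch genes (pyruvate dehydrogenase kinases, uncoupling proteins and Ppar factors) had 7 of 33 members higher (21.2%, background 1.35%) and none lower. Its median log2 fold change was 0.45, or 0.33 in the set-adjusted fit. The mitochondrial carrier *ucp3* (ENSDARG00000091209), an uncoupling protein of muscle, had 198, 211 and 182 normalized counts in control pools 1, 2 and 4, and 972, 1349, 1043 and 1153 in POP125× pools 1 to 4. It rose 5.68-fold (limma adjusted p = 0.00135). Pyruvate dehydrogenase kinase *pdk2b* (ENSDARG00000059054), which slows the entry of pyruvate into the citric acid cycle, had 1125, 1016 and 1153 normalized counts in the control and 5627, 9113, 7985 and 10423 in the POP125× samples, with a log2 fold change of 2.88 ± 0.27 (SE, limma adjusted p = 0.00140). POP125× replicate 1 was the lowest of the exposed pools in both genes and still several-fold above the controls. The paralogs *pdk2a* (1.01) and *ucp2* (1.13), the carrier *slc25a25a* (1.25), the lipid-sensing receptor gene *pparda* (1.06) and *lpin1* (1.56), a phosphatase of triglyceride synthesis that also acts with Ppar coactivators in mammals, completed the set. The number past the threshold was 7, 2 and 2 without control replicate 1, 2 and 4 and 5, 3, 2 and 2 without POP125× replicate 1, 2, 3 and 4, with 11 to 18 at an unadjusted p under 0.05, and 3 without POP125× replicates 1 and 2.

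Genes of glycolysis and glycogen split within the list. Of 61 tested, 8 rose, none fell, 21 had every exposed pool above every control and 6 below, and the median was 0.17, or 0.35 in the set-adjusted fit with 28 called higher. The 8 were the muscle phosphofructokinases *pfkmb* and *pfkma*, *hk2*, *aldoaa*, *gpib*, the glucose carrier *slc2a3a*, the lactate carrier *slc16a3* and the glycogen synthase gene *gys1*. Phosphofructokinase *pfkmb* (ENSDARG00000060797), which commits sugar to glycolysis, had 962, 942 and 899 normalized counts in the control and 2328, 1765, 2457 and 2163 in the POP125× samples, with a log2 fold change of 1.21 ± 0.14 (SE, limma adjusted p = 0.00502). The lactate carrier *slc16a3* (ENSDARG00000045051) had 512, 543 and 503 normalized counts in the control and 1063, 1225, 1049 and 1014 in the POP125× samples, with a log2 fold change of 1.06 ± 0.13 (SE, limma adjusted p = 0.00507). Neither gene overlapped between the groups. Hexokinase *hk2* (ENSDARG00000101482), the first enzyme of the path, had 303, 285 and 277 normalized counts in the control and 806, 934, 809 and 642 in the POP125× samples, with a log2 fold change of 1.46 ± 0.21 (SE, limma adjusted p = 0.0106). The most abundant of them, the aldolase gene *aldoaa* (ENSDARG00000011665), had 10411, 15175 and 16509 normalized counts in the control and 30718, 32496, 32225 and 34755 in the POP125× samples, with a log2 fold change of 1.24 ± 0.22 (SE, limma adjusted p = 0.0223), where control replicate 1 was the lowest control. The list took 1.04%, 1.31% and 1.27% of all normalized counts in control pools 1, 2 and 4, and 1.43%, 1.49%, 1.58% and 1.65% in POP125× pools 1 to 4. Members past the threshold numbered 9, 2 and 2 without control replicate 1, 2 and 4 and 6, 3, 2 and 3 without POP125× replicate 1, 2, 3 and 4, with 18 to 21 at an unadjusted p under 0.05.

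Phosphorylase kinase, which switches on glycogen breakdown, was taken up after the DEGs were seen. Of its subunit genes with a value, *phka1b* (1.35), *phkg1a* (1.46), *phkg1b* (1.09) and *phka2* (0.95) were higher DEGs, while *phkg2* (0.55, adjusted p = 0.115, limma) and *phkb* (−0.47, adjusted p = 0.387, limma) did not pass.

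Amino acid breakdown and glucose output had 7 of 50 genes higher and none lower, with a median of 0.24 (0.58 in the set-adjusted fit, with 30 called higher) and 19 members entirely above the controls. Arginase *arg2* (ENSDARG00000039269), the mitochondrial enzyme that splits arginine into ornithine and urea, had 549, 635 and 545 normalized counts in control pools 1, 2 and 4, and 1961, 3031, 1986 and 1999 in POP125× pools 1 to 4. Its log2 fold change was 1.94 ± 0.23 (SE, limma adjusted p = 0.00504). Ornithine aminotransferase *oat* (ENSDARG00000078425), the next step for that ornithine, had 473, 311 and 292 normalized counts in the control and 2026, 1981, 1692 and 1619 in the POP125× samples, with a log2 fold change of 2.37 ± 0.34 (SE, limma adjusted p = 0.0121). Successive enzymes of one path thus rose together, with POP125× replicate 2 far above the other exposed pools in *arg2* and not in *oat*. The transaminases *got1* (0.99), *gpt2* (0.84) and *agxtb* (1.35), the glutaminase *gls2a* (1.29) and the glucose-6-phosphatase *g6pca.1* (1.08) were the others. By DESeq2, 14 were higher. The members past the limma threshold numbered 7, 1 and 1 without control replicate 1, 2 and 4 and 6, 2, 2 and 2 without POP125× replicate 1, 2, 3 and 4, with 14 to 17 at an unadjusted p under 0.05.

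A few lipid genes rose. Hepatic lipase *lipca* (ENSDARG00000053476) was a low gene with 4.77, 5.87 and 8.86 normalized counts in control pools 1, 2 and 4, and 32.6, 73.0, 41.1 and 70.7 in POP125× pools 1 to 4, a log2 fold change of 2.84 ± 0.36 (SE, limma adjusted p = 0.00538). Lipoprotein lipase *lpl* (ENSDARG00000087697), which releases fatty acids from circulating particles, had 949, 1004 and 952 normalized counts in the control and 1729, 1610.3, 1672 and 1888 in the POP125× samples, with a log2 fold change of 0.83 ± 0.12 (SE, limma adjusted p = 0.0125). These lipases, with endothelial lipase *lipg* (1.46), the transfer protein *cetp* (0.99) and the cholesterol esterifying enzyme *lcat* (2.44), made up the 5 of 33 genes of apolipoproteins and lipid transport that rose, and none of the apolipoproteins in the list was among them. The list median was 0.10, or −0.095 without control replicate 1, and 0.57 in the set-adjusted fit, where 15 members were called higher. In fatty acid oxidation 2 of 39 rose, *mlycd* (1.54) and the muscle carnitine palmitoyltransferase *cpt1b* (ENSDARG00000058285), which admits fatty acids to the mitochondrion, with 458, 535 and 531 normalized counts in the control and 897, 1179, 1157 and 1111 in the POP125× samples, with a log2 fold change of 1.09 ± 0.15 (SE, limma adjusted p = 0.00721). Higher calls were 5.13% of the oxidation list, against 1.35% of all genes tested. The list median was 0.079, and 0.26 in the set-adjusted fit with 13 called higher. In fatty acid and triglyceride synthesis 3 of 30 rose, *dgat2* (1.12), the citrate carrier *slc25a1b* (0.98) and the acetyl-CoA carboxylase *acacb* (1.14), whose product blocks carnitine palmitoyltransferase.

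Genes of the respiratory chain had few calls, and their medians depended on the fit. Of 85 nuclear subunits, limma called 0, with 2 higher and 1 lower at an unadjusted p under 0.05, 1 lower by DESeq2 and 0 by edgeR, at a median of 0.044. The 13 mitochondrial genome transcripts had a median of 0.10 and 0 called by each tool, also at an unadjusted p under 0.05. The nuclear subunit median was 0.60 in the set-adjusted fit and −0.14 without control replicate 1, and that of the mitochondrial genome 0.55 and −0.12. For 30 genes of cholesterol synthesis the median was −0.27, and −0.068 without POP125× replicates 1 and 2 and 0.063 in the set-adjusted fit. Limma and edgeR called 0 of them, 3 were higher and 5 lower at an unadjusted p under 0.05, and DESeq2 called 2 higher. Purine and one-carbon genes had 2 of 30 higher, *gnmt* (0.75) and the muscle adenylosuccinate synthase *adss1* (0.77).

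**Figure D3:**
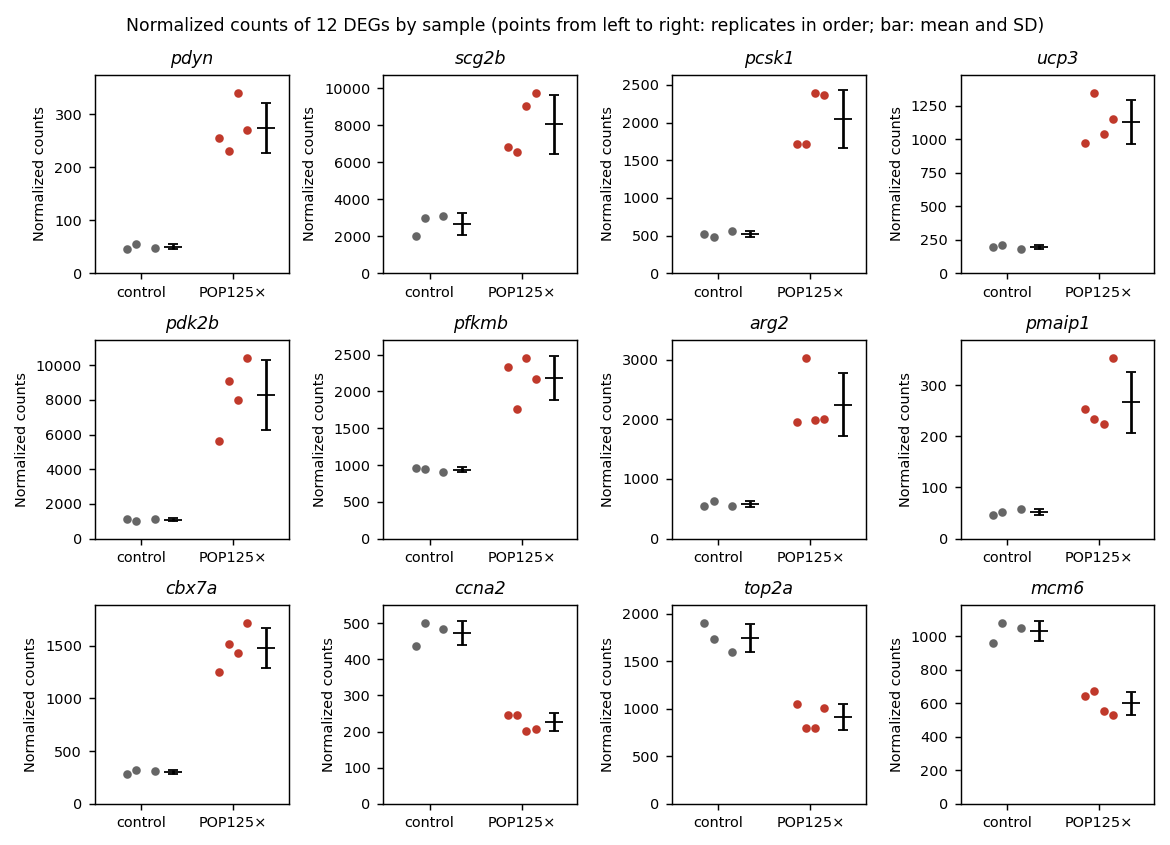
Normalized counts of 12 DEGs in each control (gray) and POP125× (red) sample, points from left to right in order of replicate number, with bars for the mean and SD (n = 3 and 4). In every panel the groups are apart, with *ccna2*, *top2a* and *mcm6* lower and the other genes higher in the POP125× samples.

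Some genes linked to muscle atrophy rose, beside little change in sarcomere genes. Pools of whole larvae do not show in which tissue they rose. Of 32 genes of muscle atrophy and Foxo targets (ubiquitin ligases, autophagy receptors and others such as *pdk4* and *klf15*), 5 rose, none fell, 18 lay entirely above the controls and 3 below, and the median was 0.50. The receptor of reticulum autophagy *retreg1* (ENSDARG00000079059) had 42.9, 25.4 and 26.6 normalized counts in control pools 1, 2 and 4, and 184, 329.6, 257 and 273 in POP125× pools 1 to 4. The proteasome activator *psme4a* (ENSDARG00000087911) had 266, 319 and 285 normalized counts in the control and 2788, 3514, 1625 and 2004 in the POP125× samples. Both were raised in every exposed pool, *psme4a* most in POP125× replicates 1 and 2. The muscle ubiquitin ligase *trim63a* had 331, 378 and 406 normalized counts in the control and 845, 1509, 827 and 1331 in the POP125× samples, with a log2 fold change of 1.55 ± 0.29 (SE, limma adjusted p = 0.0237). With *fbxo32* (2.98) and the autophagy receptor *calcoco1b* (3.30) these were the 5, and the members past the threshold numbered 5, 3 and 3 without control replicate 1, 2 and 4 and 4, 3, 3 and 3 without POP125× replicate 1, 2, 3 and 4, with 13 to 19 at an unadjusted p under 0.05. In the set-adjusted fit the list median was 0.17.

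Few genes of the breakdown machinery shared by all cells passed the test. Among 61 genes of autophagy and the lysosome, 17 lay entirely above the controls and none below, with a median of 0.15. Of these, limma and edgeR called 0, 14 were higher and 1 lower at an unadjusted p under 0.05, and DESeq2 called 9 higher. The lysosomal protease *ctsc* (ENSDARG00000101334) came closest, with 513, 586 and 625 normalized counts in the control and 769, 1063, 1146 and 993 in the POP125× samples and an adjusted p of 0.0524. Among 49 proteasome subunits only *psme4a*, which the atrophy list also holds, rose (2.04%, against 1.35% of all genes tested), and the median was 0.077. In the set-adjusted fit these medians were 0.23 for autophagy and the lysosome and 0.31 for the proteasome, where 15 subunits were called higher, both above that of the atrophy list.

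Over 93 genes of the sarcomere, calcium handling and creatine kinase of skeletal muscle, the median log2 fold change was −0.0070, or 0.12 in the set-adjusted fit. Limma and edgeR called 0, 5 were higher and 2 lower at an unadjusted p under 0.05, and DESeq2 called 3 and 1. These genes made up 12.1%, 12.4% and 11.8% of all normalized counts in control pools 1, 2 and 4, and 12.6%, 12.5%, 11.8% and 12.2% in POP125× pools 1 to 4, a share that overlapped between the groups. Among 41 muscle stem and regulatory genes, 3 rose (7.32%, background 1.35%). The titin cap gene *tcap* (ENSDARG00000007344) had 382, 354 and 295 normalized counts in the control and 754, 1259, 1776 and 1658 in the POP125× samples, with a log2 fold change of 1.92 ± 0.27 (SE, limma adjusted p = 0.00925), *lmod3*, which builds thin filaments, changed by 1.28 and the myogenic factor *myf6* by 1.34. The heart list (40 tested) had 1 higher member (2.5%, against 1.35% of all genes tested), the calcium pump *atp2a2a* (1.00). That call was lost with any single library left out. The heart list had a median of 0.25, or 0.060 in the set-adjusted fit. The cardiac myosin light chain *myl7* (ENSDARG00000019096) had 228, 260.1 and 221 normalized counts in the control and 224, 213, 236 and 292 in the POP125× samples, with overlapping groups. Chosen after the DEGs were seen, the muscle genes *klhl38b* (2.26), *trim55b* (1.41) and *igfn1.4* (3.21) were also higher DEGs. The gene *igfn1.4* was near the floor, with 0.98 to 1.91 normalized counts in the control and 12.2 to 31.5 in the POP125× samples.

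Some early response genes and some glucocorticoid targets rose. Of 39 immediate early genes (transcription factors and feedback regulators), 8 rose (20.5%, background 1.35%). Entirely above the controls were 21 (53.8%, background 12.4%) and none lay below. The median was 0.95, or 1.06 in the set-adjusted fit. Without POP125× replicates 1 and 2, limma called 3. By sample, the list median stood at −0.54, 0.22 and 0.29 in the control and 0.44, 1.25, 0.93 and 1.00 in the POP125× samples. Control replicate 1 was the lowest control and POP125× replicate 1 the lowest exposed pool. The Ap-1 factors *fosb* (2.69), *fosl1a* (3.69), *fosl2* (1.33), *junba* (2.19) and *atf3* (1.76), the cytokine feedback genes *socs3a* (1.43) and *socs3b* (1.13) and *cebpd* (1.45) were the 8. Members past the threshold numbered 7, 1 and 0 without control replicate 1, 2 and 4 and 12, 0, 0 and 0 without POP125× replicate 1, 2, 3 and 4, with 19 to 26 at an unadjusted p under 0.05.

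Of 20 glucocorticoid targets, genes induced by cortisol, 5 rose (25.0%, background 1.35%), at a median of 0.78, or 0.73 in the set-adjusted fit. Entirely above the controls were 12 (60.0%, background 12.4%) and entirely below 1 (5.0%, background 11.6%). Without POP125× replicates 1 and 2, limma called 1. The receptor cochaperone *fkbp5* (ENSDARG00000028396), which feeds back on the glucocorticoid receptor, had 2015, 2068 and 2207 normalized counts in control pools 1, 2 and 4, and 3463, 6045, 5514 and 5721 in POP125× pools 1 to 4, with a log2 fold change of 1.27 ± 0.22 (SE, limma adjusted p = 0.0206). The transcription factor *klf9* (ENSDARG00000068194) had 395, 549.6 and 634 normalized counts in the control and 1009.7, 1716, 1789.7 and 2108 in the POP125× samples, with a log2 fold change of 1.63 ± 0.31 (SE, limma adjusted p = 0.0286). In both genes POP125× replicate 1 was the lowest exposed pool. The mTor inhibitor *ddit4* (0.97), *cebpd* and *irs2b* (0.82) were the rest, and 4 of the 5 are also in other lists here. Without a library, the members past the threshold numbered 2, 0 and 0 without control replicate 1, 2 and 4 and 4, 0, 0 and 0 without POP125× replicate 1, 2, 3 and 4, with 9 to 13 at an unadjusted p under 0.05.

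Insulin and IGF signaling had 5 of 60 members higher (8.33%, against 1.35% of all genes tested). They were the IGF-binding proteins *igfbp1a* (2.56) and *igfbp1b* (3.11), which hold IGF away from its receptor and also make up the 2 DEGs among 32 hypoxia inducible genes, the translation repressor *eif4ebp3l* (1.04), the receptor adaptor *grb10b* (1.54) and *irs2b*. The hypoxia list had a median of 0.50 (0.29 in the set-adjusted fit) with 17 members entirely above the controls. In the integrated stress response, which follows short amino acid supply, 3 of 42 rose (7.14%), *trib1* (1.51), *sesn2* (1.01) and *ddit4*. Of the 42, 17 (40.5%) lay entirely above the controls (background 12.4%), at a median of 0.34. No member passed the threshold without control replicate 2 or 4, or without POP125× replicate 2, 3 or 4. Without POP125× replicates 1 and 2 together, 0 passed as well.

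Among 31 p53 targets 2 rose, *sesn2* and the proapoptotic gene *pmaip1* (ENSDARG00000089307), which had 45.8, 52.8 and 57.1 normalized counts in control pools 1, 2 and 4, and 253, 235, 224 and 354 in POP125× pools 1 to 4. The log2 fold change of *pmaip1* was 2.32 ± 0.21 (SE, limma adjusted p = 0.00135), while the list median was 0.14, or 0.084 in the set-adjusted fit. Small heat shock proteins rose at *hspb9* (ENSDARG00000078674), with 98.3, 78.2 and 68.9 normalized counts in the control and 217, 452, 440.4 and 484 in the POP125× samples, with a log2 fold change of 2.22 ± 0.28 (SE, limma adjusted p = 0.00504), and *hspb6* (1.76). No other of the 39 heat shock genes passed, and their median was 0.011, or 0.23 in the set-adjusted fit. Of 34 reticulum chaperones 1 rose (2.94%, against 1.35% of all genes tested), *dnajb9b* (1.71), at a median of −0.17 (−0.011 in the set-adjusted fit). The *dnajb9b* call was lost with any single library left out, and edgeR called 0 of these chaperones.

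Few genes that answer foreign compounds passed the test. Limma and edgeR called 0 of 53 Nrf2 and antioxidant genes, with 10 higher and 2 lower at an unadjusted p under 0.05, 4 and 1 by DESeq2, and a median of 0.16. Of 17 aryl hydrocarbon receptor genes, which respond to planar aromatic compounds, 0 were called by each of the tools and 0 had an unadjusted p under 0.05, at a median of 0.18. Cytochrome P450 genes of families 1 to 4 had 2 of 51 higher and 1 lower, the latter being *cyp2aa8* (ENSDARG00000104540), with 532, 478 and 493 normalized counts in the control and 75.7, 51.1, 104 and 110.0 in the POP125× samples, with a log2 fold change of −2.60 ± 0.46 (SE, limma adjusted p = 0.0215). The 2 were *cyp2k18* (1.96) and *cyp2k6* (2.58). The transferases that conjugate such compounds had 2 of 57 higher, *sult5a1* (2.81) and *sult2st3* (0.71), at a median of −0.081. The higher calls were 3.92% of P450 genes and 3.51% of transferases, against 1.35% of all genes tested. The lower one was 1.96% of P450 genes, against 0.348%. In the set-adjusted fit, 14 P450 genes and 14 transferases were called higher and 4 P450 genes lower. Over all 21563 genes tested, that fit called 1728 higher and 979 lower. Its transferase median was 0.30, that of Nrf2 and antioxidant genes 0.36 and that of aryl hydrocarbon receptor genes −0.063. Without control replicate 1 the Nrf2 median was 0.022.

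Among immune genes, signals of injury held most of the DEGs. Of 67 cytokine and injury response genes, 8 rose (11.9%, background 1.35%), and the median was 0.67, or 0.39 in the set-adjusted fit. Entirely above the controls were 34 (50.7%, background 12.4%) and entirely below 3 (4.48%, background 11.6%). Without POP125× replicates 1 and 2, limma called 0. The matrix protease *mmp9* (ENSDARG00000042816), which neutrophils and wounded skin release, had 100.2, 128 and 116 normalized counts in control pools 1, 2 and 4, and 1176, 2093, 609.6 and 607 in POP125× pools 1 to 4, with a log2 fold change of 3.08 ± 0.56 (SE, limma adjusted p = 0.0230). The cytokine-activated factor *stat3* (ENSDARG00000022712) had 496, 387 and 389.9 normalized counts in the control and 944, 1073, 835 and 966 in the POP125× samples, with a log2 fold change of 1.17 ± 0.25 (SE, limma adjusted p = 0.0467). POP125× replicates 1 and 2 were the highest for *mmp9*. The chemokine *cxcl18b*, *irf1b* (2.39), *il11a* and both *socs3* genes, shared with the early response list, were also among the 8. Without a library, members past the threshold numbered 3, 0 and 1 without control replicate 1, 2 and 4 and 3, 0, 0 and 0 without POP125× replicate 1, 2, 3 and 4, with 29 to 35 at an unadjusted p under 0.05. In the list of neutrophil and macrophage genes, 1 of 45 (*mmp9*) rose, 19 lay entirely above the controls and 1 below, at a median of 0.38. As a share of all normalized counts, the summed level of the list was 0.0622%, 0.160% and 0.157% in control pools 1, 2 and 4. In POP125× pools 1 to 4 it was 0.0826%, 0.110%, 0.0842% and 0.124%, all above control replicate 1 and below control replicates 2 and 4. The lineage markers *mpx* and *mpeg1.1* did not pass. The neutrophil peroxidase *mpx* had 207, 255 and 224 normalized counts in the control and 141, 147, 294 and 203 in the POP125× samples, with overlap. The macrophage gene *mpeg1.1* had 116, 101 and 120.1 in the control and 141, 144, 156 and 135 in the POP125× samples, without overlap. For the neutrophil marker *lyz* the counts were 140, 174 and 175 against 219, 218, 194 and 240, each exposed pool above each control. For the macrophage marker *marco* they were 116, 147 and 133 against 156, 139, 262 and 216, with overlap.

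Of 23 interferon response genes 2 rose, *irf3* (1.70) and *irf7* (1.26), and the list median of 0.62 became 0.042 in the set-adjusted fit. By edgeR, 0 of them passed. Complement and acute phase genes had *c7b* (1.55) and *c4* (1.39) higher and *c8b* (−0.78) lower among 37. In 52 endothelial genes 1 rose, the lymphatic receptor *lyve1a* (1.77), at a median of 0.042. Red cell genes (42 tested) had 1 higher, *nt5c2l1* (0.85), and a median of −0.25, which was −0.068 without POP125× replicates 1 and 2 and 0.12 in the set-adjusted fit. Of 19 lymphocyte genes 1 fell, the division gene *top2a*. The higher calls were 8.70%, 5.41%, 1.92% and 2.38% of the interferon, complement, endothelial and red cell lists, against 1.35% of all genes tested. The lower ones were 2.70% of complement and 5.26% of lymphocyte genes, against 0.348%. No limma call in these lists held without control replicate 2 or 4, or without POP125× replicate 2, 3 or 4.

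Few keratin and matrix genes passed the threshold. The lower ones were 3.03% of keratins and keratinocyte genes and 2.60% of collagens and fibroblast matrix, above the 0.348% of all genes tested. Keratins and keratinocyte genes (66 tested) had 2 lower members and 1 higher, 21 entirely below the controls and 7 above, and a median of −0.30, which was −0.047 in the set-adjusted fit. They took 1.91%, 2.06% and 1.96% of all normalized counts in control pools 1, 2 and 4, and 1.21%, 1.11%, 1.19% and 1.43% in POP125× pools 1 to 4. The keratin *cyt1l* (ENSDARG00000036832) had 12181, 15401 and 14217 normalized counts in the control and 6123, 5387, 4620.0 and 6395 in the POP125× samples, with a log2 fold change of −1.31 ± 0.28 (SE, limma adjusted p = 0.0457), and the antimicrobial peptide gene *defbl1* also fell (−1.29), while the mucus gene *agr1* rose (0.90). None of these calls of the keratin list held with any single library left out. By edgeR, 1 member was lower and 0 were higher. Superficial keratin *krt4* had 78058, 95700.4 and 90109.6 normalized counts in the control and 52064, 44314, 38712 and 49378 in the POP125× samples, with an adjusted p of 0.0988. Collagens and fibroblast matrix had 2 of 77 lower, *col7a1l* (−1.25), an anchoring fibril collagen, and *tgfbi* (ENSDARG00000071586), a matrix protein, with 5235, 5972 and 5285 normalized counts in the control and 3046, 2611, 3217 and 3007 in the POP125× samples, with a log2 fold change of −0.89 ± 0.16 (SE, limma adjusted p = 0.0213). The median of that list was −0.30, also in the set-adjusted fit, with 26 members entirely below the controls and 7 above. Members past the threshold numbered 1, 0 and 0 without control replicate 1, 2 and 4. Without POP125× replicate 1, 2, 3 and 4 they numbered 1, 0, 0 and 0.

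Cartilage matrix genes (41 tested) had 16 members entirely below the controls (39.0%, background 11.6%) and 2 above (4.88%, background 12.4%). Their median was −0.25, or −0.28 in the set-adjusted fit. The main cartilage collagen *col2a1a* (ENSDARG00000069093) had 49593, 59928 and 56702 normalized counts in the control and 35295, 32417, 35122 and 30151 in the POP125× samples, an adjusted p of 0.179, with no overlap. Against that direction the lubricin paralog *prg4b* (ENSDARG00000028163) rose, with 115, 136 and 133 normalized counts in the control and 264, 322, 298 and 373 in the POP125× samples, with a log2 fold change of 1.28 ± 0.17 (SE, limma adjusted p = 0.00738). In bone and mineralization the vitamin D hydroxylase *cyp24a1* (2.18) was the 1 DEG of 34. Ionocytes, the salt-transporting cells of larval skin, had 4 of 48 genes higher, the sodium pump subunit *atp1b1b* (0.93), the chloride carrier *slc12a10.2* (0.83), the anion exchanger *slc4a2a* (1.00) and the hormone *pth1a* (2.76), at a median of 0.22. In the set-adjusted fit the ionocyte median was also 0.22. The higher calls were 8.33% of the 48, against 1.35% of all genes tested. Of the 48, 16 lay entirely above the controls (33.3%, background 12.4%) and 3 below (6.25%, background 11.6%). DESeq2 called 10 higher and 2 lower. The organ marker *ca4b* had 123.1 to 144.7 normalized counts in the control and 32.8 to 61.7 in the POP125× samples, without overlap. Limma and edgeR called 0 of 37 pigment cell genes, with 6 higher and 1 lower at an unadjusted p under 0.05 and 3 and 1 by DESeq2, at a median of 0.23 (0.025 in the set-adjusted fit).

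**Figure D4:**
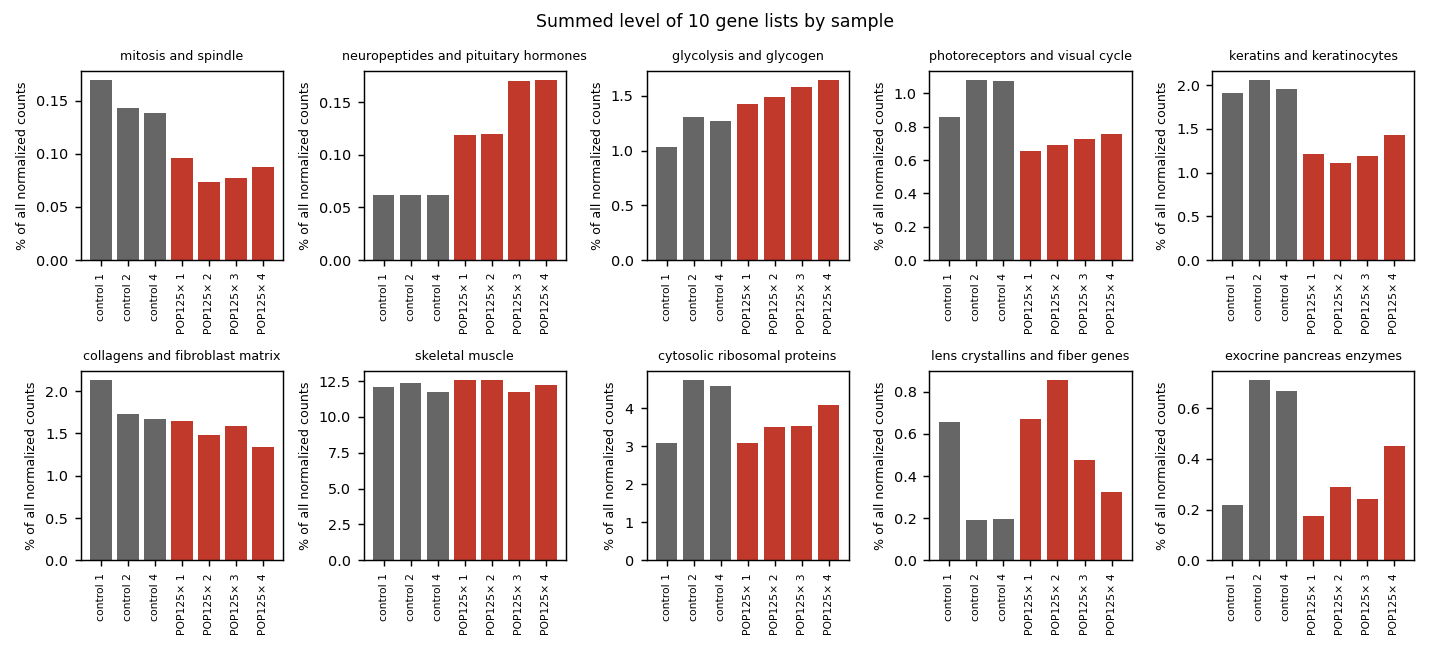
Summed level of 10 gene lists as a percent of all normalized counts, one bar per control (gray) or POP125× (red) sample, each panel with its own axis from 0. Mitosis, photoreceptor and keratin genes are lower in all 4 POP125× samples, neuropeptide and glycolysis genes higher, skeletal muscle level, and in the lens and exocrine pancreas panels control replicate 1 resembles the POP125× samples.

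Several tissues differed more between libraries than between groups. Lens crystallin and fiber genes (57 tested) had a median log2 fold change of 0.78, but their median by sample was 1.14, −0.57 and −0.52 in the control and 0.96, 1.35, 0.71 and 0.075 in the POP125× samples. Exocrine pancreas enzymes (34 tested) had a median of −0.74 and stood at −1.28, 0.66 and 0.58 in the control and −1.39, −0.62, −0.99 and 0.052 in the POP125× samples. In both lists control replicate 1 lay among the exposed pools and POP125× replicate 4 nearer to the other controls. In the set-adjusted fit, the lens median became −0.59 and the exocrine median 0.77, each with its sign turned. The median within-group SD of their genes was 0.79 and 0.90 on the log2 scale, against 0.28 over all genes tested. Limma called 1 exocrine gene (2.94%, against 1.35% of all genes tested), *prss60.3* (2.24), higher. It called 0 lens genes, as did edgeR, with 3 higher at an unadjusted p under 0.05 and 1 by DESeq2.

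The other digestive organs had few DEGs. Those higher were 3.39% of liver plasma proteins and 7.14% of endocrine pancreas and gut hormones, against 1.35% of all genes tested. Among 59 liver plasma proteins 2 rose, the angiotensin precursor *agt* (0.91) and the bile acid receptor paralog *nr1h5* (1.05), at a median of −0.19, which turned to 0.28 in the set-adjusted fit with 12 called higher. Transferrin, *tfa*, had 8908, 11497 and 11104 normalized counts in the control and 4060.0, 4894, 5603 and 7142 in the POP125× samples, entirely below the controls with an adjusted p of 0.0847. Endocrine pancreas and gut hormones had 2 of 28 higher, the convertase *pcsk1* and the gut peptide *pyya* (1.65). For 45 intestine genes the median was −0.071 (0.57 in the set-adjusted fit), limma, edgeR and DESeq2 called 0, and 1 was higher and 2 lower at an unadjusted p under 0.05. In the thyroid axis (20 tested) *klf9* rose and thyroglobulin *tg* (ENSDARG00000020084), the hormone precursor, fell, with 315, 426 and 395 normalized counts in the control and 172, 191, 206 and 156 in the POP125× samples, with a log2 fold change of −1.05 ± 0.20 (SE, limma adjusted p = 0.0287). Kidney genes (36 tested), inner ear and lateral line genes (38), germ cell genes (12) and clock genes (48) had 0 called by limma and edgeR. At an unadjusted p under 0.05 these lists had 5, 5, 0 and 4 genes higher and 0, 2, 0 and 1 lower, and DESeq2 called 1 kidney and 1 clock gene higher.

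The medians of the lists held to different degrees with either pair of exposed pools. Without POP125× replicates 1 and 2, the median changed sign for 9 of the 66 lists, and without replicates 3 and 4 for 7. The medians of mitosis and spindle genes (−0.87 and −0.88), immediate early genes (0.98 and 0.92) and glucocorticoid targets (0.88 and 0.73) were close under both. DNA replication genes (−0.81 and −0.49) and neuropeptides (1.14 and 0.64) moved further from 0 with replicates 3 and 4 alone. Cytokines (0.54 and 0.73) moved further with replicates 1 and 2 alone. The difference between the pairs was not tested.

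**Figure D5:**
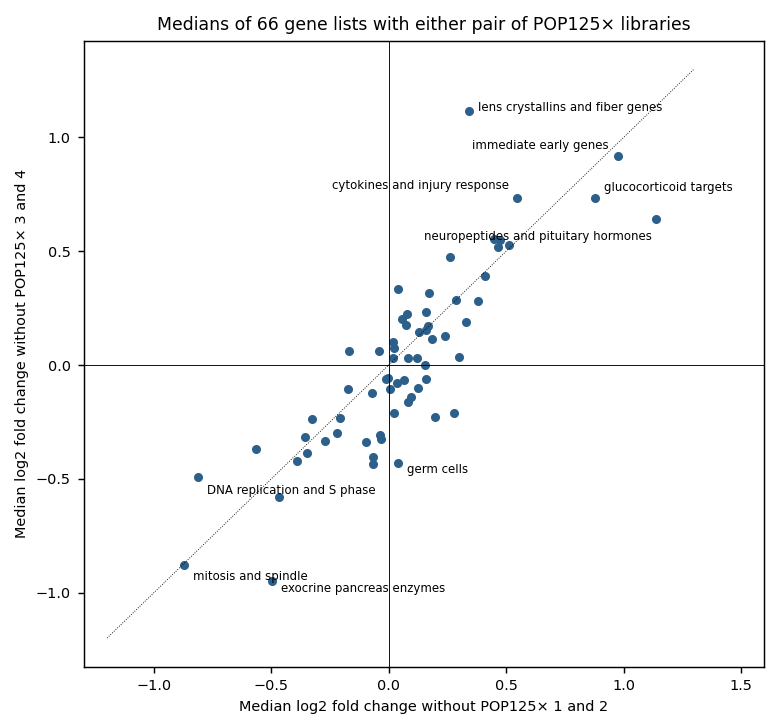
Median log2 fold change (POP125× minus control) of 66 gene lists without POP125× replicates 1 and 2 (x axis) and without POP125× replicates 3 and 4 (y axis), one point per list, with a dotted line where both are equal. Mitosis and spindle genes lie at −0.87 and −0.88, near the line, and lens genes at 0.34 and 1.12, far above it.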

How the data were processed

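Whole-larva RNA-seq of 10 samples was used, 3 control, 3 POP75× and 4 POP125×, of which the 7 control and POP125× samples are compared here. The authors sequenced stranded poly(A) libraries, quantified genes of GRCz11 (Ensembl annotation) through the default nf-core RNA-seq workflow, and deposited one signal per gene and sample, namely reads over a size factor from DESeq2. RNA pools held 75 larvae by the labels, a number that differs from the methods. All values (100%) were whole multiples of one read within 0.01, so reads were recovered. No value column lacked a sample (0). The authors' own comparison tables (fold changes and p-values) were not used.

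After a filter of 10 normalized counts in 3 or more samples, limma 3.58.1 (R 4.3.3) was run on log2(value + 1), with an intensity trend, all 10 samples and condition as the only term. Fold changes are on that scale, which understates those of low genes. DEGs had a Benjamini-Hochberg adjusted p under 0.05. On simulated counts of the 21563 genes for this comparison, 33% of 2-fold and 95% of 4-fold changes were recovered. edgeR 4.0.16 (220 higher, 65 lower) and DESeq2 1.42.0 were run on the recovered reads. Python 3.11.15 with matplotlib 3.10.9 made the figures. The alternatives were other scalings, pseudocounts, filters, samples and tools, each library left out, and sample sets found by clustering.

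The comparison, gene lists and alternatives were chosen with earlier results of these data known, so no list is independent support. Lists get no test. Named genes are the 10 DEGs with the lowest p in each direction, up to 3 DEGs per list and direction, up to 2 lowest-p members of a list without a DEG, and organ markers. Genes named beyond this, such as the further DEGs of a list, were chosen after their values were seen, and some are not reported here. Same-numbered replicates did not deviate together in every pair (r = 0.165, 0.025 and 0.145 for replicates 1, 2 and 4), so the numbers were not taken to pair samples. Symbols were those of the deposited table, where 566 stand for more than one identifier. Depth limits low genes most, and a fall in a gene under the count minimum was not detectable.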

Additional observations from a re-analysis of the deposited data

Results flagged for a closer look

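Among the 98 named DEGs, 4 had a POP125× library that lay apart from the other exposed pools, by a gap to the nearest of them, as a share of the group's range, above Dixon's 95% critical value for 4 samples. Chance flags about 1 in 20 groups, and the genes were 98. For *arg2*, POP125× replicate 2 was the highest, with 3031 normalized counts against 1961 to 1999 in the others, a gap of 0.964 of the range. For *adss1*, replicate 4 was the highest, with 12729.8 against 10843 to 11058 and a gap of 0.886. For *irf3*, replicate 2 was the highest, with 55.9 against 30.9 in the lowest and a gap of 0.873. For *hspb9*, replicate 1 was the lowest, with 217 against 440.4 to 484 and a gap of 0.837. The calls of *arg2* and *hspb9* held without each library in turn.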

How the results depend on the processing

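The number of DEGs depended on the fit. From 291 higher and 75 lower, it changed to 142 and 46 with total count scaling, to 1003 and 531 with only the control and POP125× samples, to 1001 and 608 with DESeq2 on all samples and to 1681 and 1220 with DESeq2 on these groups alone. It was 1728 and 979 in the set-adjusted fit, 65 and 2 without POP125× replicates 1 and 2, and 0 and 0 without POP125× replicates 3 and 4. Lower DEGs numbered 49 without the intensity trend. With each library left out in turn, higher DEGs ranged from 38 to 373 and lower ones from 0 to 100. The fits with libraries left out also hold fewer samples, and the part of that in these changes was not tested. With the replicate number as a block, limma gave 783 higher and 381 lower DEGs. TMM scaling, pseudocounts of 0.5 and 5, other count filters, edgeR and a fold change over 1.5 kept the counts within 1.5 times.

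None of the 98 named DEGs changed direction under the 22 settings run on single genes. Under the settings that only left out libraries, this was fixed in advance by the separation of the groups. The other settings used the same samples on which the genes were chosen. The median of a list changed sign for 9 of 66 lists without POP125× replicates 1 and 2, for 7 without replicates 3 and 4, for 15 in the set-adjusted fit, for 13 without some single library and for 7 with total count scaling, which moved the median of all genes from −0.0082 to 0.063. The cause of these changes was not tested. Since 33% of simulated 2-fold changes were recovered, lists with few calls may hold changes of that size that were not detectable.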
